A study of Mus musculus with 6 samples.

Results

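Amino acid transporters of the solute carrier (Slc) families 1, 3, 6, 7, 36, 38 and 43 were examined in epiblast-like cells (EpiLC), which resemble the epiblast just after implantation, and in the mouse embryonic stem cells (mESC) they derive from. The members were taken by name alone, as every gene of these 7 families measured by a probe with a single gene symbol, and numbered 59 of the 22180 genes on the array. They comprised 7 Slc1, 2 Slc3, 17 Slc6, 15 Slc7, 4 Slc36, 11 Slc38 and 3 Slc43 genes. Slc6a9 was not analysed here, because its probe also carries another symbol.

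Both states came from the EB3 line. EpiLC had been induced for 2 days in N2B27 medium holding Activin A (20 ng/ml) plus bFGF (12 ng/ml), and mESC were kept in N2B27 with LIF and BMP4. Each state was given the GSK3 inhibitor CHIR99021 (CHIR) at 3 µM together with the MEK inhibitor PD0325901 (PD) at 1 µM for 24 hours, or 3 µM CHIR alone for 24 hours, or was left untreated. PD was never given alone, and the 6 groups were 1 Affymetrix Mouse Gene 2.0 ST array each. Every group was thus 1 sample of 1 line. A difference between 2 single arrays carries neither an error nor a test here, and precision throughout is bounded by the count of arrays.

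Cells take up amino acids through carriers that differ in substrate and in driving force. Slc1 and Slc38 proteins use the sodium gradient to load the cell with glutamate, glutamine, alanine and serine, whereas most Slc7 and Slc43 proteins exchange or equilibrate leucine, cationic amino acids or cystine. The Slc3 proteins are not carriers themselves but heavy chains that bring Slc7 light chains to the membrane, and Slc36 and some Slc38 proteins move amino acids out of lysosomes. Slc6 proteins carry neurotransmitters, taurine, creatine and neutral amino acids. Mouse ESC are known to depend on threonine from this supply. Shortage of amino acids raises several of these genes through the transcription factor ATF4, which binds composite C/EBP-ATF elements.

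Upstream sequences are shown for 3 members to set known regulatory motifs beside the measurements. Slc43a1 had the highest EpiLC-to-mESC difference of the members, Slc7a7 the lowest difference with the inhibitors, and Slc7a11 is a textbook ATF4 target. RefSeq promoter windows (build GRCm38.p6) were found for 42 of the 59 members, and 250 bases before the transcription start were searched on both strands for the C/EBP-ATF core TGATGNAA, the Tcf/Lef motif CTTTGAT and the E-box CACGTG. These motifs do not overlap each other in the windows printed. The windows, given 5′ to 3′ on the gene's strand with motif matches in capitals, were chr2:84840073-84840322 on the plus strand for Slc43a1, chr14:54417945-54418194 on the minus strand for Slc7a7 (the first of 5 listed starts) and chr3:50443614-50443863 on the minus strand for Slc7a11.
Slc43a1: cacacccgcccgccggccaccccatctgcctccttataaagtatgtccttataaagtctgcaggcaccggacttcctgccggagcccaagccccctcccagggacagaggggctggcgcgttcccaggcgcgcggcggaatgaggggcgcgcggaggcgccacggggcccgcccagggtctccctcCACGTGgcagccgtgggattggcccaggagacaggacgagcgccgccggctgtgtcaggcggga
Slc7a7: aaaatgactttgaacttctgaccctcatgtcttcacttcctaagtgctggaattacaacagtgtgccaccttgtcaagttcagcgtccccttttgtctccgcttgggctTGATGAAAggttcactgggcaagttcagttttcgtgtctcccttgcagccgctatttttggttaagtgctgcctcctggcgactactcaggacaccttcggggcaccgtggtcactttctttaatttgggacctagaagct
Slc7a11: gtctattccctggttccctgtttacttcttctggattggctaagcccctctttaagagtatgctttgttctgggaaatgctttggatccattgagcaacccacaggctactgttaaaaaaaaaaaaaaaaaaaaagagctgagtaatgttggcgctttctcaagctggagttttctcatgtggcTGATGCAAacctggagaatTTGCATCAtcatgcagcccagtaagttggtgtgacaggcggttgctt
The Slc43a1 window held 1 E-box that began 64 bases before the start. The Slc7a7 window held 1 C/EBP-ATF core, 141 bases before the start, and the Slc7a11 window held 2, which began 66 and 47 bases before it on opposite strands. The C/EBP-ATF core was found in 3.45% of all 32851 windows and in 4 of 61 windows of members (Slc6a21, Slc7a7 and Slc7a11). The Tcf/Lef motif was found in 3.21% of all windows and in 5 of 61 windows of members (Slc1a2, Slc6a16, Slc7a1, Slc38a9 and Slc38a10), and the E-box in 6.02% and in 9 of 61. A match describes letters only and shows no binding.

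The deposited intensities were close in distribution over the arrays, with medians over all probes between 60.5 and 65.2. Of the 59 members, 30 lay above the array's median on all 6 arrays, 18 lay below it on all 6 and 11 lay on both sides. Naive markers separated the states, and formative markers did so in part. In the limma model described below, all 8 naive markers fell in EpiLC past an adjusted p of 0.05. Their summed intensity was 548 to 954 in EpiLC and 7878 to 10070.0 in mESC. Of 4 pluripotency markers shared by the states, 1 fell past that threshold, Sox2 (-2.50, limma adjusted p = 0.026), and 0 rose. In EpiLC with CHIR+PD, with CHIR and untreated, Pou5f1 was at 557.8, 881.4 and 1289.5, and Nanog at 2498.5, 496.3 and 708.6. Of 7 formative markers, 4 rose past that threshold, which 4.15% of all genes passed in each direction. Fgf5, Otx2 and Dnmt3b had positive log2 differences (3.52, 1.45 and 0.33) that did not pass it. The formative sum was 2154, 4606 and 9378 in EpiLC with CHIR+PD, with CHIR and untreated, against 1400, 2038 and 3668.5 in mESC, so that EpiLC with CHIR+PD lay below untreated mESC. In the same order Fgf5 was at 39.4, 770.0 and 1258.5 in EpiLC and 19.9, 35.6 and 35.98 in mESC, and Otx2 at 59.0, 309.7 and 1025 in EpiLC and 40.2, 56.2 and 410.5 in mESC. Dnmt3b was lower in EpiLC than in mESC with CHIR+PD (788 against 817) and with CHIR (1279.5 against 1289). Cdh2 was at 1553.5 in EpiLC with CHIR and 253 in untreated EpiLC, so that it made up much of the sum of 4606. On that pair of arrays, 1 of the 7 formative markers was 2-fold higher (1.77% of all genes) and 5 were 2-fold lower (0.929%). Treatment moved markers of other fates as well. The summed intensity of 8 mesoderm markers was 10855 in CHIR-treated EpiLC and between 754.5 and 1123 on the other 5 arrays, with Msgn1 at 3768 in CHIR-treated EpiLC and 65.2 in untreated EpiLC. Of these 8, 4 were 2-fold higher with CHIR than untreated in EpiLC (1.77% of all genes), namely Mixl1, Msgn1, Tbx6 and Lhx1. Eomes (389.9 against 344.6), Mesp1 (197.5 against 183.8) and Foxf1 (146.3 against 148.5) lay close, and Hand1 was lower (39.3 against 61.3). The CHIR-treated EpiLC array also had a primitive endoderm sum of 1542 (468 to 559 on the others). The neural marker Sox1 was at 885 in CHIR+PD-treated EpiLC and at 43.2 and 53.5 on the other EpiLC arrays. The other measured neural markers were not highest in CHIR+PD-treated EpiLC. With CHIR+PD, with CHIR and untreated, EpiLC had Pax6 at 82.3, 87.2 and 124 and Neurog2 at 61.6, 69.5 and 77.3. Tubb3 was at 204, 129 and 263 in the same order. The 8 fibroblast markers summed to between 601 and 1496, with Dcn, Lum and Postn at 18.5 to 42.7 on all arrays. Of these 8, Col1a1 rose in EpiLC (1.38, limma adjusted p = 0.0123), with 370.3 in EpiLC with CHIR+PD against 80.8 to 100.9 in mESC, and Acta2 reached 845 in EpiLC with CHIR+PD. In such cultures fewer cells of a type and less RNA per cell cannot be told apart.

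EpiLC differed from mESC in a small number of transporters. A limma model of state plus treatment over all 6 arrays was used, in which 3 arrays stand for each state and a gene that responds differently in the states gets a large error. In it, 6 of 59 members rose in EpiLC past an adjusted p of 0.05, against 4.15% of all genes, and 2 fell, likewise against 4.15% of all genes. The risers were Slc43a1, Slc43a3, Slc7a6, Slc1a3, Slc1a4 and Slc38a3, and those that fell were Slc6a8 and Slc6a6. The median difference of the members was -0.08 on the log2 scale, against -0.02 for all genes. Intensities of the 3 EpiLC arrays did not overlap those of the 3 mESC arrays for 18 members, 9 higher (12.4% of all genes) and 9 lower (14.4% of all genes).

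**Figure D1:**
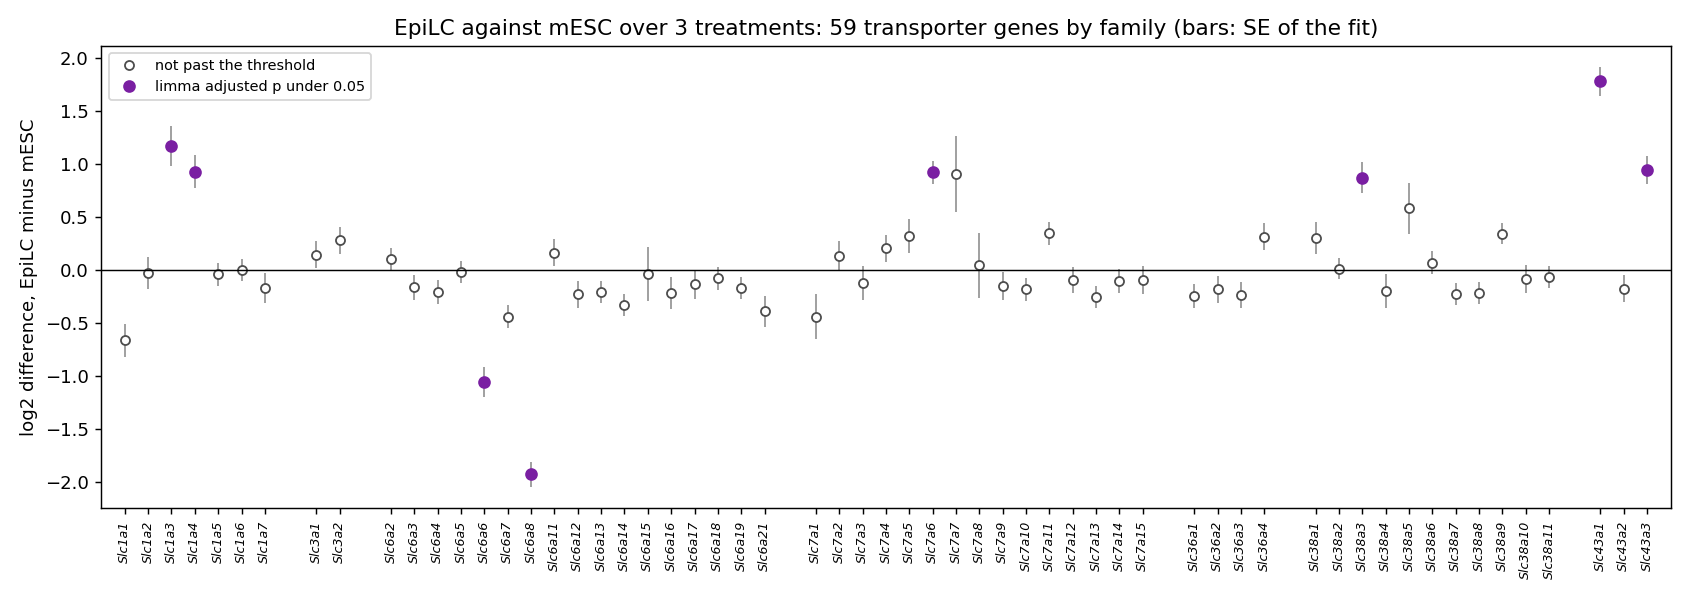
Log2 difference of EpiLC minus mESC (vertical axis) for each of the 59 transporter genes (horizontal axis, grouped by Slc family), from the limma fit over 3 treatments, with bars of 1 SE. Filled points, 6 above and 2 below 0, have an adjusted p under 0.05, and most other members lie within 0.5 of 0.

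Slc43a1, which encodes LAT3, a sodium-independent facilitator of leucine and other large neutral amino acids, had intensities of 426, 731 and 357 in EpiLC with CHIR+PD, with CHIR and untreated, against 128, 174 and 124 in the same treatments of mESC. Every EpiLC array lay above every mESC array, and the 2 CHIR arrays were the highest of their states. The fitted difference was 1.78 (SE 0.14), or 3.43-fold (limma adjusted p = 0.00336). Slc43a3, which shares the family but is known as a carrier of purine nucleobases, had 167, 198 and 217 in EpiLC and 107, 97.5 and 98.1 in mESC, with no overlap and a difference of 0.94 (SE 0.13, limma adjusted p = 0.0152), a call lost without the untreated pair of arrays (limma adjusted p = 0.0556) or the CHIR pair (0.0549). The remaining member, the leucine facilitator gene Slc43a2, had 138, 107 and 139.7 in EpiLC and 175, 132 and 129 in mESC. Those ranges overlapped, and its difference was -0.18 with a 95% interval of -0.50 to 0.15.

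**Figure D2:**
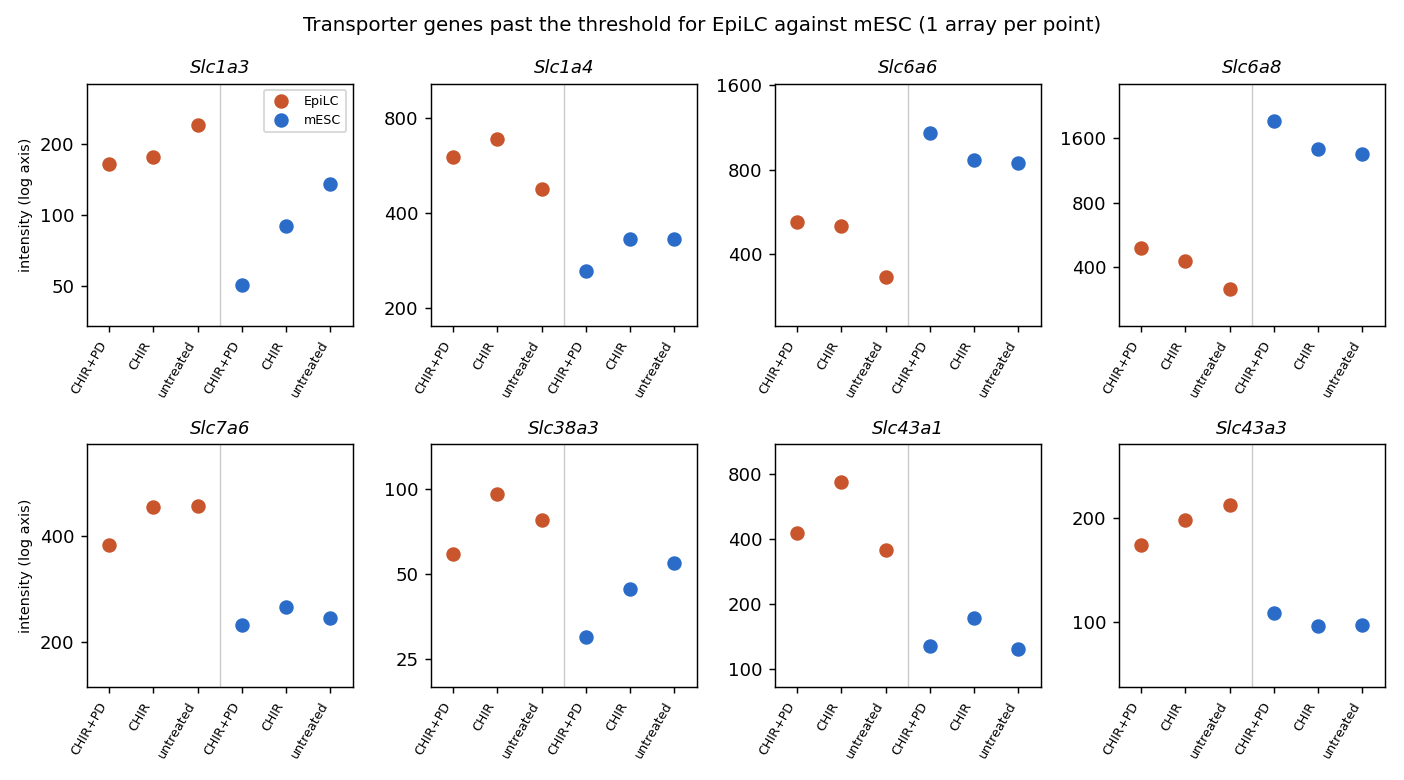
Intensity on a log axis of the 8 transporter genes past the threshold for EpiLC against mESC, 1 point per array, EpiLC (orange) left of mESC (blue) and the 3 treatments along the horizontal axis. In all 8 panels the points of the 2 states do not overlap, EpiLC lying above mESC except for Slc6a6 and Slc6a8.

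Slc6a8 and Slc6a6, carriers of the organic solutes creatine and taurine, were the members that fell. Slc6a8 had 489.7, 429.5 and 318 in EpiLC with CHIR+PD, with CHIR and untreated, against 1921, 1422 and 1345 in mESC. The lowest mESC value was above the highest EpiLC value, and the gene fell by 1.93 (SE 0.12, limma adjusted p = 0.00195), to 0.263 of its mESC level. Slc6a6 had 522, 503 and 331 in EpiLC and 1078, 863 and 842 in mESC, again without overlap, and fell by 1.06 (SE 0.14, limma adjusted p = 0.0122). In both states both genes were highest with CHIR+PD and lowest untreated. The rest of the family held 14 genes at intensities of 23.3 to 122 on all arrays, besides Slc6a15, described with the treatments. They include the monoamine carriers Slc6a2, Slc6a3 and Slc6a4, the glycine carrier Slc6a5, the proline carrier Slc6a7, the GABA and betaine carriers Slc6a11, Slc6a12 and Slc6a13, and the neutral amino acid carriers Slc6a14, Slc6a17, Slc6a18 and Slc6a19. Of the 17 Slc6 genes 15 had a negative difference, with a family median of -0.21, whereas 53.8% of all genes were negative. In the untreated pair 11 of 17 were lower, against 49.6% of all genes.

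Heteromeric exchangers pair Slc3a2 (4F2hc, also CD98) with a light chain of the Slc7 family. Slc3a2 had 1844, 2675 and 2329 in EpiLC with CHIR+PD, with CHIR and untreated, against 1763, 1858 and 1958 in mESC. The light chain gene Slc7a5 (LAT1, the main leucine exchanger of dividing cells) had 1396, 2350.4 and 2105 in EpiLC and 1468, 1482 and 1644 in mESC. For both genes the ranges of the states overlapped, CHIR-treated EpiLC were highest, and the differences of 0.28 (95% interval -0.03 to 0.59) and 0.32 (-0.08 to 0.71) did not pass the threshold. Slc7a6 (y+LAT2, which exchanges cationic for neutral amino acids) was the light chain that rose, with 379, 486 and 488 in EpiLC against 223, 252 and 235 in mESC. It showed no overlap and a difference of 0.92 (SE 0.11, limma adjusted p = 0.00936). Its relative Slc7a7 (y+LAT1) had a difference of 0.90 with an SE of 0.35 (limma adjusted p = 0.197), with mESC values spread from 157 to 945.

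Of the other light chains, none passed the threshold. Slc7a11 (xCT), the cystine-glutamate exchanger whose upstream window holds the paired C/EBP-ATF cores, had 35.0, 48.9 and 38.6 in EpiLC and 30.6, 35.3 and 30.0 in mESC, close to the arrays' lower quartiles of 32.5 to 35.2. Its difference of 0.34 (SE 0.11, limma adjusted p = 0.126) did not pass. Slc7a10 (Asc-1, a carrier of small neutral amino acids) had 61.6, 68.5 and 76.5 in EpiLC and 77.3, 79.3 and 77.2 in mESC. The kidney pair Slc3a1 (rBAT) and Slc7a9 was at 46.1 to 49.7 and 26.9 to 32.1 in EpiLC, against 39.2 to 50.4 and 29.0 to 36.4 in mESC. The remaining 6 Slc7 genes (Slc7a2, Slc7a4, Slc7a12, Slc7a13, Slc7a14 and Slc7a15) were between 19.1 and 70.3 on all arrays.

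Within Slc1, the gene of the astroglial glutamate carrier GLAST, Slc1a3, had 166, 176 and 241 in EpiLC with CHIR+PD, with CHIR and untreated, against 50.7, 89.7 and 136 in mESC. The states did not overlap, although the highest mESC value, of untreated cells, came near the lowest EpiLC value. It rose by 1.17 (SE 0.19, limma adjusted p = 0.022), a call lost with state alone in the model (limma adjusted p = 0.1) and with a constant of 4 in place of the lowest value (0.0573). Slc1a4 (ASCT1, an exchanger of alanine, serine, cysteine and threonine) had 601, 687 and 479 in EpiLC and 262, 332 and 332 in mESC, without overlap, and rose by 0.93 (SE 0.15, limma adjusted p = 0.024). That call was lost without the CHIR pair of arrays (limma adjusted p = 0.0834) and without the CHIR+PD pair (limma adjusted p = 0.0607), and with a constant of 4 (limma adjusted p = 0.0565). Slc1a5 (ASCT2), the related glutamine carrier, had 162, 193 and 168 in EpiLC and 182, 179 and 175 in mESC. Its difference was -0.04, with a 95% interval of -0.31 to 0.23. The glutamate carrier gene Slc1a1 had 59.1 to 76.7 in EpiLC and 92.3 to 125 in mESC, and its difference of -0.66 (SE 0.16, limma adjusted p = 0.0621) missed the threshold. Slc1a2, Slc1a6 and Slc1a7, which encode further glutamate carriers, were between 37.0 and 108 on all arrays.

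In the Slc38 family of sodium-coupled neutral amino acid carriers, Slc38a3 (SNAT3, a glutamine carrier) was the gene that rose. It had 58.8, 95.6 and 77.5 in EpiLC with CHIR+PD, with CHIR and untreated, against 29.7, 44.0 and 54.6 in mESC, a difference of 0.87 (SE 0.15, limma adjusted p = 0.0248). These values are low, the states lay just apart, and the call was lost without the CHIR pair (limma adjusted p = 0.0969) or the CHIR+PD pair (limma adjusted p = 0.0687). It was lost too with a constant of 4 (limma adjusted p = 0.0519) and with state alone in the model (limma adjusted p = 0.105). Slc38a1 (SNAT1) had 1218, 1386 and 1559 in EpiLC and 1266, 1074 and 1036 in mESC, with a difference of 0.30 (95% interval -0.07 to 0.67). Slc38a9, which encodes a lysosomal carrier that signals arginine to mTORC1, had 293, 308 and 285 in EpiLC and 245, 238 and 217 in mESC, without overlap, yet its difference of 0.34 (SE 0.10, limma adjusted p = 0.106) did not pass. Slc38a6, Slc38a8, Slc38a10 and Slc38a11, whose substrates are less settled, had differences of at most 0.22 in size between the states.

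No Slc36 gene passed the threshold. Slc36a1 (PAT1, the proton-coupled carrier of lysosomes and plasma membrane) had 267, 243 and 200.0 in EpiLC with CHIR+PD, with CHIR and untreated, against 311, 262 and 264 in mESC. Slc36a4 (PAT4, a high-affinity carrier of proline and tryptophan) had 392, 424 and 411 in EpiLC and 377, 294 and 322 in mESC as the average of 2 probes, without overlap. Its probes disagreed. The brighter read 2194, 2453 and 2686 in EpiLC and 2940, 2302 and 2383 in mESC, overlapping, and the dimmer 70.2, 73.4 and 63.0 in EpiLC and 48.4, 37.5 and 43.4 in mESC. Slc36a2 and Slc36a3 were between 23.5 and 69.6.

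Set out by treatment, the count of members at least 2-fold apart between EpiLC and mESC was 8 with CHIR+PD, 5 with CHIR and 5 untreated, with 1 array per group. Untreated, 3 were higher (Slc7a6, Slc43a1 and Slc43a3, with 1.47% of all genes) and 2 lower (Slc6a6 and Slc6a8, with 2.3% of all genes). With CHIR, 4 were higher (Slc1a4, Slc38a3, Slc43a1 and Slc43a3, with 2.45% of all genes) and Slc6a8 was lower (2.63% of all genes). With CHIR+PD, 5 were higher (Slc1a3, Slc1a4, Slc7a7, Slc38a5 and Slc43a1, with 3.29% of all genes) and 3 lower (Slc6a6, Slc6a8 and Slc7a1, with 3.11% of all genes). Slc43a1 and Slc6a8 were thus the members at least 2-fold apart in each of the 3 pairs.

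CHIR was next compared with no treatment. Over both states, 0 of 59 members passed the limma threshold, as did 0% of all genes, and 7 members had an unadjusted p under 0.05, against 7.27% of all genes. The smallest limma adjusted p among members was 0.581. In mESC, no member was 2-fold higher (0.185% of all genes) or 2-fold lower (0.153%) with CHIR. In EpiLC, Slc43a1 was 2-fold higher (1.77% of all genes) and Slc7a3, Slc7a7 and Slc6a15 were 2-fold lower (0.929%). All of these EpiLC differences lie on the array with the mesoderm marker sum of 10855, against 1098 in untreated EpiLC. The part in them of cells with such markers was not tested.

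Slc7a3 (CAT3), a cationic amino acid carrier that supplies arginine and lysine, had 733 with CHIR and 1607 untreated in EpiLC, and 867 with CHIR and 1323 untreated in mESC. Its value was lower with CHIR in both states, by a log2 difference of -1.13 in EpiLC and -0.61 in mESC. The close relative Slc7a1 (CAT1), the ubiquitous cationic carrier, had 298 with CHIR and 247 untreated in EpiLC, and 306 and 287 in mESC. Slc7a7 had 777 with CHIR and 1594 untreated in EpiLC (log2 difference -1.04), and 782 with CHIR and 945 untreated in mESC (-0.27). Slc6a15 (B0AT2, a carrier of branched-chain amino acids and proline) had 105 with CHIR and 273 untreated in EpiLC (-1.38), and 159 and 164 in mESC (-0.04). The difference between the states was not tested, since each response is a single pair of arrays.

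Other members had like values in both states. Slc38a4 (SNAT4), an imprinted carrier gene strong in liver and placenta, had 1306 with CHIR and 692 untreated in EpiLC and 1285 with CHIR and 691 untreated in mESC, log2 differences of 0.92 and 0.90. The fitted value was 0.91 (SE 0.19, limma adjusted p = 0.581). Slc38a2 (SNAT2), which is induced by amino acid shortage, had 1645 with CHIR and 2268 untreated in EpiLC and 1677 and 2279.6 in mESC, log2 differences of -0.46 and -0.44. On these arrays the 2 states lay almost on each other for both genes, with differences of EpiLC minus mESC of 0.02 with CHIR for Slc38a4 and -0.03 for Slc38a2. Slc38a7, a lysosomal glutamine exporter gene named after its values were seen, had 396 with CHIR and 279 untreated in EpiLC and 431 and 324 in mESC.

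**Figure D3:**
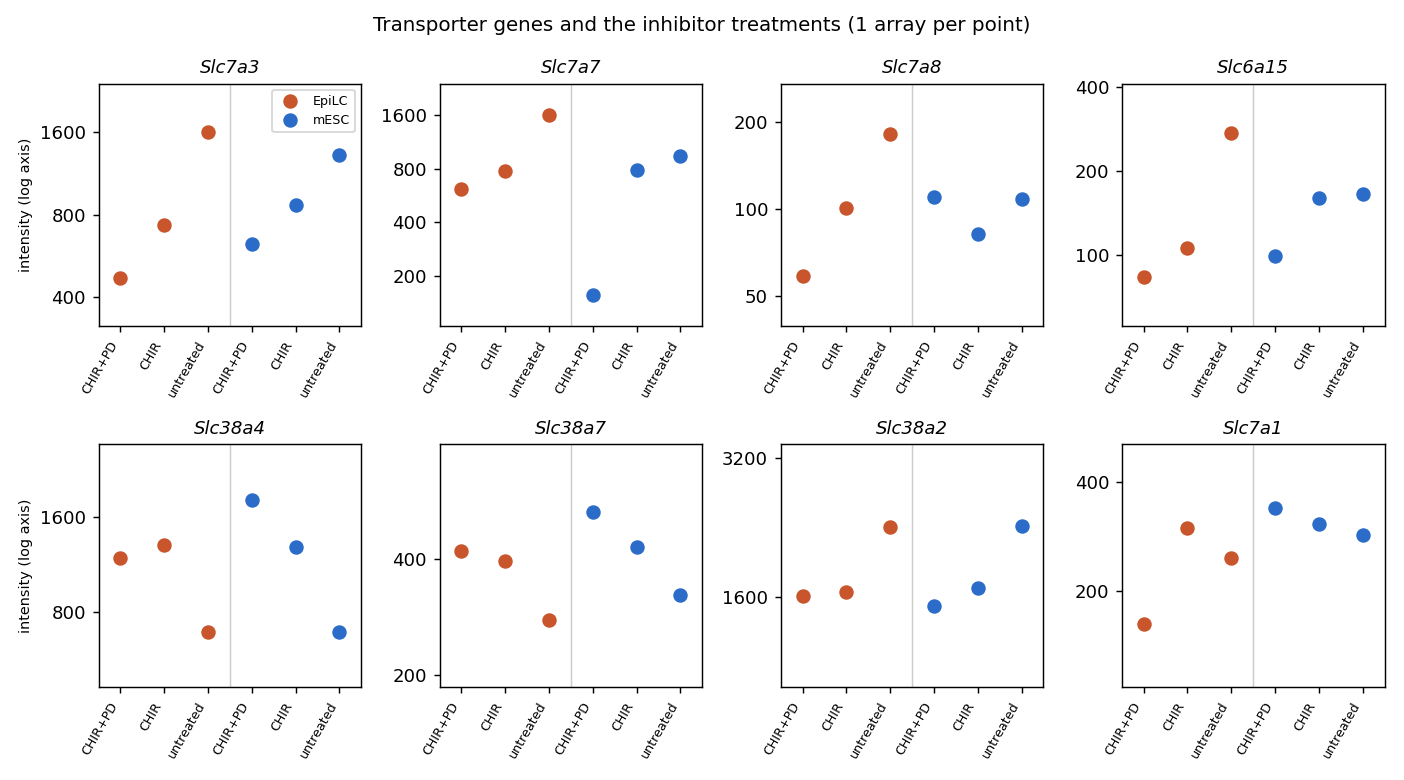
Intensity on a log axis of 8 transporter genes chosen for display with the treatments. None of them passed the limma threshold in a treatment comparison of the main fit. Each point is 1 array, EpiLC (orange) left of mESC (blue), with CHIR+PD, CHIR and untreated cells along the horizontal axis. Slc7a3 steps down from untreated cells to CHIR to CHIR+PD in both states, Slc38a4 lies highest in CHIR+PD-treated mESC at 1814, and Slc7a7 lies lowest there at 157.

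Most Slc7 genes had lower values with CHIR+PD than with CHIR, a comparison that shares the CHIR arrays with the preceding one. In the fit, 14 of 15 Slc7 genes had a negative difference, with a family median of -0.27, whereas 53.3% of all genes were negative with a median of -0.01. Of these 15 genes, 7 were dim, lying below the array's median on all 6 arrays. In EpiLC 13 of 15 were lower (median -0.36, with 52.5% of all genes lower) and in mESC 11 of 15 (median -0.17, with 52% of all genes lower). In both states 10 of 15 were lower, as were 29.5% of all genes. Lower values in EpiLC were not particular to Slc7, since 42 of all 59 members were lower there, among them 6 of 7 Slc1 and 2 of 2 Slc3 genes. In mESC 29 of 59 members were lower. Single calls were few. Of the 59 members 0 passed the limma threshold, against 0.018% of all genes, and 7 had an unadjusted p under 0.05, against 5.77% of all genes in either direction. All 7 were lower, as were 2.84% of all genes at that limit. They were Slc6a3, Slc38a3, Slc43a1 and the Slc7 genes Slc7a3, Slc7a7, Slc7a11 and Slc7a13. The smallest limma adjusted p among members was 0.773. No member was 2-fold higher in mESC (0.252% of all genes) and Slc7a7 was lower (0.523%), while in EpiLC none was 2-fold higher (1.04%) or lower (1.01%).

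Slc7a7 had 157 with CHIR+PD and 782 with CHIR in mESC, a log2 difference of -2.32, and 615 with CHIR+PD and 777 with CHIR in EpiLC (-0.34). In mESC with CHIR+PD it was at a value far below those of the other 5 arrays, whose lowest was 615. Among the genes of the exchanger pair, Slc7a5 had 1396 with CHIR+PD and 2350.4 with CHIR in EpiLC (-0.75) and 1468 and 1482 in mESC (-0.01). Slc3a2 had 1844 with CHIR+PD and 2675 with CHIR in EpiLC (-0.54) and 1763 and 1858 in mESC (-0.08). For both chains the values lay apart in EpiLC and close together in mESC. Slc7a1 likewise had 162 with CHIR+PD and 298 with CHIR in EpiLC (-0.88), against 339.7 and 306 in mESC (0.15), and Slc7a3 had 469 and 733 in EpiLC (-0.64) and 623 and 867 in mESC (-0.48).

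**Figure D4:**
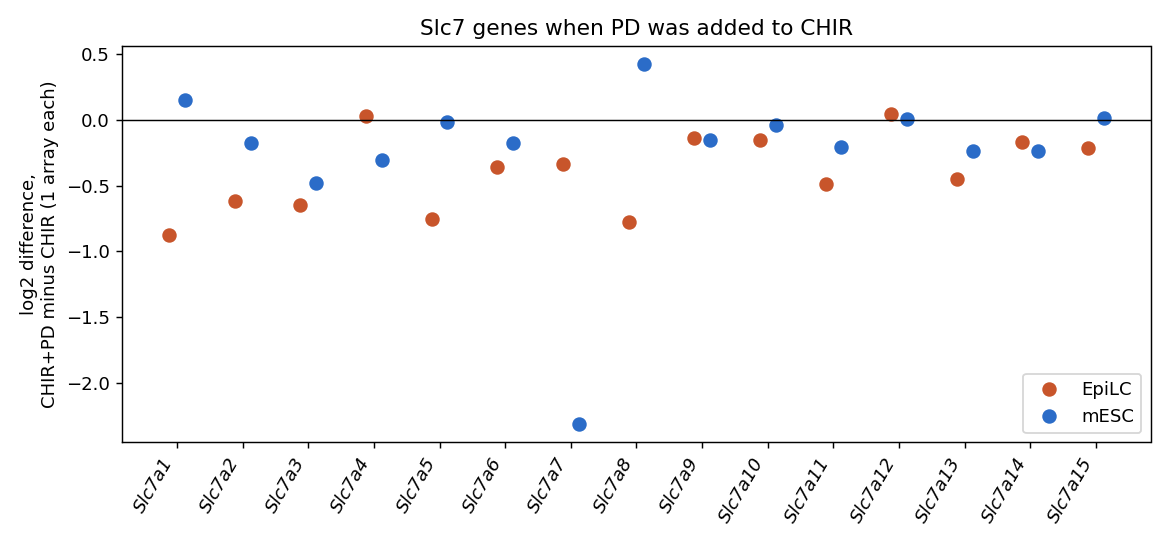
Log2 difference of CHIR+PD minus CHIR (vertical axis) for each of the 15 Slc7 genes (horizontal axis), 1 array against 1 array in EpiLC (orange) and in mESC (blue). Most points lie below 0, with Slc7a7 in mESC lowest at -2.32 and Slc7a8 on opposite sides in the 2 states.

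Slc43a1 had 426 with CHIR+PD and 731 with CHIR in EpiLC (-0.78) and 128 and 174 in mESC (-0.44). Both states thus had lower values with CHIR+PD. Slc38a3 was also lower in both, by -0.70 in EpiLC and -0.57 in mESC. Slc7a8 (LAT2, a neutral amino acid exchanger) had 59.0 with CHIR+PD and 101 with CHIR in EpiLC (-0.77) and 110.5 and 82.2 in mESC (0.43). In EpiLC the mesoderm marker sum was 754.5 with CHIR+PD and 10855 with CHIR. The part in these differences of cells with such markers was not tested.

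CHIR+PD was finally set against untreated cells, a comparison that shares its arrays with the preceding ones. In the fit, 0 of 59 members passed the limma threshold, against 0.0271% of all genes, and 13 had an unadjusted p under 0.05, against 14.3% of all genes. In mESC, Slc38a4 was 2-fold higher (0.618% of all genes) and Slc1a3, Slc7a3 and Slc7a7 were 2-fold lower (0.848%). In EpiLC, none was 2-fold higher (2.62%) and Slc6a15, Slc7a3, Slc7a7 and Slc7a8 were 2-fold lower (1.49%). Slc7a3 and Slc7a7 were the members 2-fold lower in both states.

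Slc7a3 had 469 with CHIR+PD and 1607 untreated in EpiLC and 623 and 1323 in mESC, log2 differences of -1.78 and -1.09. Its fitted difference of -1.43 (SE 0.19) had the smallest limma adjusted p of the members, 0.113, or 0.0487 with trend and robust moderation. Slc7a7 had 615 with CHIR+PD and 1594 untreated in EpiLC (-1.37) and 157 and 945 in mESC (-2.59). Slc38a4 had 1185 with CHIR+PD and 692 untreated in EpiLC (0.78) and 1814 and 691 in mESC (1.39). Slc1a3 had 166 and 241 in EpiLC (-0.54) and 50.7 and 136 in mESC (-1.42). These 4 genes kept one direction in the 2 states.

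Slc6a15 had 82.9 with CHIR+PD and 273 untreated in EpiLC (-1.72) and 99.0 and 164 in mESC (-0.73). Slc7a8 had 59.0 and 182 in EpiLC (-1.62) and 110.5 and 109 in mESC (0.02). Slc6a8 and Slc6a6 were higher with CHIR+PD in both states, by 0.62 and 0.66 in EpiLC and by 0.51 and 0.36 in mESC. Formative marker sums were lower on the same CHIR+PD arrays, with 2154 against 9378 in EpiLC and 1400 against 3668.5 in mESC. Of 7 formative markers, 6 were 2-fold lower in EpiLC (1.49% of all genes) and 3 in mESC (0.848%). Cdh2 went the other way, at 471.9 against 253 in EpiLC and 157.7 against 133.6 in mESC. The trophoblast marker sum was 3852 against 1296 in EpiLC and 3947 against 1916 in mESC, most of it Krt8 and Krt18. Of these 7 trophoblast markers, 4 were 2-fold higher in EpiLC and 2 in mESC, while Eomes was at 33.7 against 344.6 in EpiLC and 35.5 against 55.5 in mESC. Their part in the transporter values was not tested.

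Genes around the transporters were read from lists, chosen with earlier results known. Of 21 further amino acid and peptide carriers outside the 7 families, 1 rose and 3 fell in EpiLC against mESC past the limma threshold, which 4.15% of all genes passed in each direction. Slc16a10 (TAT1, a facilitator of aromatic amino acids) rose by 0.97, whereas the peptide carrier Slc15a1 fell by 2.99, the mitochondrial aspartate-glutamate carrier Slc25a12 fell by 1.61 and Mfsd12, a lysosomal cysteine importer gene, fell by 1.09. Of 28 measured genes of the amino acid response 3 rose, namely Vldlr (1.38), Atf3 (1.02) and Chac1 (0.99, a glutathione-degrading enzyme), and 0 fell, again with 4.15% of all genes in each direction. In EpiLC, 6 of these 28 were 2-fold lower with CHIR+PD than with CHIR (1.01% of all genes) and 0 higher (1.04%). The largest fall was that of Nupr1, at 63.7 with CHIR+PD and 258.5 with CHIR. Others were Cth (-1.48), Trib3 (-1.13) and Shmt2 (-1.13). On the same pair of arrays 5 of 8 mesoderm markers (sum 754.5 with CHIR+PD, 10855 with CHIR) and 3 of 6 primitive endoderm markers were 2-fold lower, and their part in this was not tested. In mESC, 0 of the 28 were 2-fold apart. Among 32 genes of amino acid sensing by mTORC1, Nprl3 rose by 0.53 and Fnip2 fell by 0.53 past the same threshold (4.15% of all genes in each direction). Among 22 genes of amino acid use, 3 fell past it in EpiLC (4.15% of all genes), namely Ass1 (-1.07), which makes argininosuccinate, the branched-chain aminotransferase gene Bcat2 (-0.81) and Amt (-0.79) of the glycine cleavage system. Of the 3 measured partner proteins 0 passed the threshold in any of the 4 fitted comparisons.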

How the data were processed

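Intensities of 33793 probes on 6 arrays were used as the authors deposited them, on a linear scale with a lowest value of 16 on every array, and how arrays were normalized is not given in the sources used here. GeneSpring GX 11.5 is named per the series' design text, and raw array files were not used. Probes with 1 symbol (23521) were kept, 1814 with several and 8458 with none were left out, and the mean log2 value of each symbol's probes was taken (22180 genes). Members with more than 1 probe (4) were also read by their brightest probe. The Entrez identifiers of all 59 members were found in RefSeq, with no symbol changed.

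A model of state plus treatment (2 residual degrees of freedom) was fitted to all genes by lmFit and eBayes (limma 3.58.1, R 4.3.3), with Benjamini-Hochberg adjustment over all 22180 genes, two-sided, threshold 0.05, and gave 4 comparisons. Another 9 set 1 array against 1 array, with a 2-fold limit and no test. The test of EpiLC against mESC was checked on simulated data that held no treatment effect. The treatment comparisons were not checked in this way. Values on all arrays are given for members past the threshold, members 2-fold apart that reach an intensity of 100, the member with the highest mean log2 value of each family, and transporters of known role. Members and lists were chosen with earlier results of these data known. Levels are compared within a gene and not between genes, since probes differ. Alternatives were constants of 4 and 64 in place of the lowest value, quantile normalization, the brightest probe, a filter on dim genes, trend and robust moderation, a model of state alone and leaving out each treatment pair.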

Additional observations from a re-analysis of the deposited data

Results flagged for a closer look

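In 3 members the inhibitors went opposite ways in EpiLC and mESC by at least 1.25-fold in each state, 1 array against 1 array, and this difference was not tested. With CHIR+PD against CHIR, Slc7a8 had a log2 difference of -0.77 in EpiLC and 0.43 in mESC. With CHIR+PD against untreated cells, Slc38a5 (SNAT5, a glutamine carrier, at intensities of 41.0 to 93.2 on all arrays) had 0.76 in EpiLC and -0.52 in mESC. In the same comparison Slc1a4 had 0.33 in EpiLC and -0.34 in mESC. In these comparisons 1 and 2 of 59 members met this rule, against 454 and 604 of all 22180 genes, so that the shares were alike. With CHIR against untreated cells 0 members and 249 of all genes met it.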

How the results depend on the processing

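Of the 8 members called between EpiLC and mESC, 5 were called with a constant of 4 in place of the lowest value, without Slc1a3, Slc1a4 and Slc38a3 (limma adjusted p = 0.0573, 0.0565 and 0.0519). Leaving out 1 treatment pair of arrays gave 6 to 7 calls. Slc6a6, Slc6a8, Slc7a6 and Slc43a1 were called under each alternative run. Slc1a4 and Slc38a3 were lost without the CHIR pair or the CHIR+PD pair, Slc43a3 without the untreated or the CHIR pair, and Slc1a1 was called without the CHIR pair. With state alone in the model, 6 were called, without Slc1a3 and Slc38a3 (limma adjusted p = 0.1 and 0.105). Over all genes the calls numbered 1841, against 1016 with a constant of 4 and 945 without the CHIR pair. With trend and robust moderation 1 member, Slc7a3 (limma adjusted p = 0.0487), was called for CHIR+PD against untreated, in place of 0, and 53 genes in place of 6. With a constant of 64, members at least 2-fold apart between EpiLC and mESC numbered 3 untreated, 2 with CHIR and 5 with CHIR+PD (5, 5 and 8 as reported, and over all genes 447, 663 and 804 in place of 835, 1127 and 1418), and 2 in place of 4 for CHIR in EpiLC. With a constant of 4, 2 in place of 1 were 2-fold apart for CHIR+PD against CHIR in mESC (425 genes in place of 172). The cause was not tested, except that a larger constant by construction shrinks differences. The other 66 counts stayed within 1.5 times, and no called direction reversed under any alternative run. The treatment term pairs EpiLC with mESC by treatment, and no block by replicate number could be fitted with 1 array per group. Dim genes near the lowest value are the least certain.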

Other observations

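Slc7a11 and Slc1a5 were averages of 2 probes each. For Slc7a11 the brighter probe read 38.8, 68.2 and 61.8 in EpiLC with CHIR+PD, with CHIR and untreated, against 40.9, 40.3 and 33.7 in mESC, and the dimmer probe 31.6, 35.1 and 24.1 in EpiLC against 22.9, 30.9 and 26.7 in mESC. For Slc1a5 the brighter probe read 393, 467 and 352 in EpiLC and 442, 412 and 404 in mESC, and the dimmer 67.1, 79.6 and 80.3 in EpiLC and 74.8, 77.8 and 75.8 in mESC. Slc38a10 was an average of 2 probes as well. The brighter read 198.9, 186.7 and 172.9 in EpiLC and 219.7, 179.3 and 165.8 in mESC, and the dimmer 56.0, 71.2 and 75.8 in EpiLC and 85.9, 69.7 and 69.8 in mESC. Slc38a5, dim on every array, read 93.2, 78.1 and 55.2 in EpiLC and 41.0, 49.7 and 58.8 in mESC, so that untreated cells of the 2 states lay close and those with CHIR+PD were 2.27-fold apart.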
